A study of Arabidopsis thaliana with 12 samples.

Results

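Leaf senescence is the ordered dismantling of an ageing leaf, in which chlorophyll and proteins are broken down and their nitrogen and carbon are exported to growing organs. Transcription factors of the NAC and WRKY families drive the programme downstream of ethylene and abscisic acid. A set of senescence-associated genes (SAG) serves as its readout, and a short pathway of chloroplast enzymes takes chlorophyll apart. The same programme runs in other green organs, among them the inflorescence stem. The 9 genes described here were taken by identifier from the 27655 genes of the expression table, across 4 genotypes of Arabidopsis thaliana. They are the markers SAG12 (AT5G45890), SAG13 (AT2G29350) and SWEET15 (AT5G13170, also called SAG29), the regulators NAP (AT1G69490), ORE1 (AT5G39610, also called NAC092) and WRKY6 (AT1G62300), and the chlorophyll breakdown genes NYC1 (AT4G13250), SGR1 (AT4G22920) and PAO (AT3G44880).

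RNA of the main inflorescence stem of 2-month-old plants was sequenced from ccr1-3/fer4 double mutants (ccrfer), fer4 mutants (fer), ccr1-3 mutants (ccr) and wild-type Col-0 plants (WT), with 3 libraries per genotype. CCR1 encodes cinnamoyl-CoA reductase of lignin synthesis and FER encodes the receptor kinase FERONIA. The study asked how loss of FERONIA changes genes that are raised in ccr1-3. The genotype entries of ccrfer replicates 2 and 3 read fer5 and fer6 in place of fer4, and the titles were followed. The labels do not give how many plants made up a library.

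FER transcript went against one label. It stood at 0.894, 0.159 and 1.49 FPKM in ccrfer, 85.1, 83.1 and 84.0 in the libraries labelled fer, 100.4, 97.7 and 96.5 in ccr, and 85.9, 83.5 and 83.0 in WT. FPKM is the authors' estimate of fragments, scaled by transcript length and by the mapped fragments of the library. Every direction drawn from the libraries labelled fer carries this limit. CCR1 stood at 207, 231 and 179 FPKM in ccrfer, 354, 301 and 302 in the libraries labelled fer, 220.0, 189 and 188 in ccr, and 256, 231 and 222 in WT, so its level alone does not mark the ccr1-3 libraries. Libraries held 56884740 (fer replicate 2) to 227159338 reads (ccr replicate 2). AT2G01021, the highest entry of every library, ranged from 42536 FPKM in ccr replicate 3 to 45932600 in ccrfer replicate 3. Markers of lignified xylem and fibre summed to 381 to 416 FPKM over 5 genes in ccrfer, 141 to 157 in the libraries labelled fer, 244 to 251 in ccr and 7.11 to 8.33 in WT. All 5 were higher than in WT in each mutant genotype. Among them, IRX1 and NAC012 were under FPKM 1 in every WT library and entered the test only through mutant libraries. Their higher calls follow in part from that. The part of the xylem and fibre difference in the comparisons with WT below was not tested. The 4 phloem markers were detected throughout and moved both ways against WT. SUC2 and PP2-A1, which carry most of their summed FPKM (389 to 459, 412 to 452, 324 to 354 and 569 to 623 in the same order of genotypes), were lower in all 3 mutant genotypes. SEOR1 was higher in all 3 (means of 30.1, 41.8, 21.1 and 6.17 FPKM), and APL was higher with the fer label and lower in ccr. The 2 cambium markers (77.6 to 97.0, 78.4 to 81.7, 72.0 to 76.1 and 22.7 to 23.2) were detected in every library. Both, PXY and WOX4, were higher than in WT in each mutant genotype, and the part of this in the results below was not tested. The 5 epidermis markers summed to 194 to 205 in ccrfer, 164 to 188 in the libraries labelled fer, 124 to 128 in ccr and 78.8 to 83.9 in WT. KCS6 carried most of this sum (means of 146, 163, 108 and 74.7 FPKM). Of the 4 tested, 3 were higher than in WT in each mutant genotype. Among these, CER1 and LP1 were under FPKM 1 in every WT library, so their higher calls also follow in part from the filter on low values. ATML1 was lower in ccr (2.71 against 5.35 FPKM in WT) and did not differ from WT by the test in the other mutant genotypes. PDF1 was too low to be tested. The 5 flower markers summed to at most 1.05 in every library. The 4 seed markers summed to 51.7 to 58.2 in the libraries labelled fer and to at most 0.602 in any other library, and the part of this difference in the results below was not tested. In bulk stems, fewer cells of a type and less RNA per cell cannot be told apart.

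Against WT, most of the 9 senescence genes were lower in each mutant genotype, while SAG13, SWEET15 and WRKY6 lacked a call in at least 1 of them. Called genes are those with an adjusted p under 0.05 in limma, fitted to log2(FPKM + 1) over all 12 libraries. SAG12, NAP, ORE1, SGR1, NYC1 and PAO were lower in every one of the mutant genotypes, which makes 6 of the 9 genes, where 11.3% of the 18428 tested genes were called lower in all 3 of these comparisons with the same WT libraries. In ccrfer 8 of 9 were lower and none was higher, where 22.8% of tested genes were called lower and 24.9% higher. With the fer label 7 were lower and none higher, against 23.2% of tested genes lower and 28.4% higher. In ccr 7 were lower and none higher, against 19.8% and 24.0%. The mutant libraries did not overlap those of WT in 8 genes for ccrfer, 7 for the fer label and 7 for ccr, where 55.6%, 63.4% and 69.0% of all tested genes had no overlap. SWEET15 passed the filter on low values only through ccr and WT. Its lower calls and its lack of overlap with WT in ccrfer and with the fer label follow in part from that filter. Without SWEET15, 7 of 8 genes were lower in ccrfer, 6 of 8 with the fer label and 7 of 8 in ccr. The median difference of the 9 genes was -1.59 in ccrfer, -1.69 in the libraries labelled fer and -1.47 in ccr on the log2(FPKM + 1) scale, while the median of all tested genes was 0.00, 0.04 and 0.03. No gene of the 9 was above WT at an unadjusted limma p under 0.05 either. These comparisons share the WT libraries, so their directions do not stand independently of each other.

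**Figure D1:**
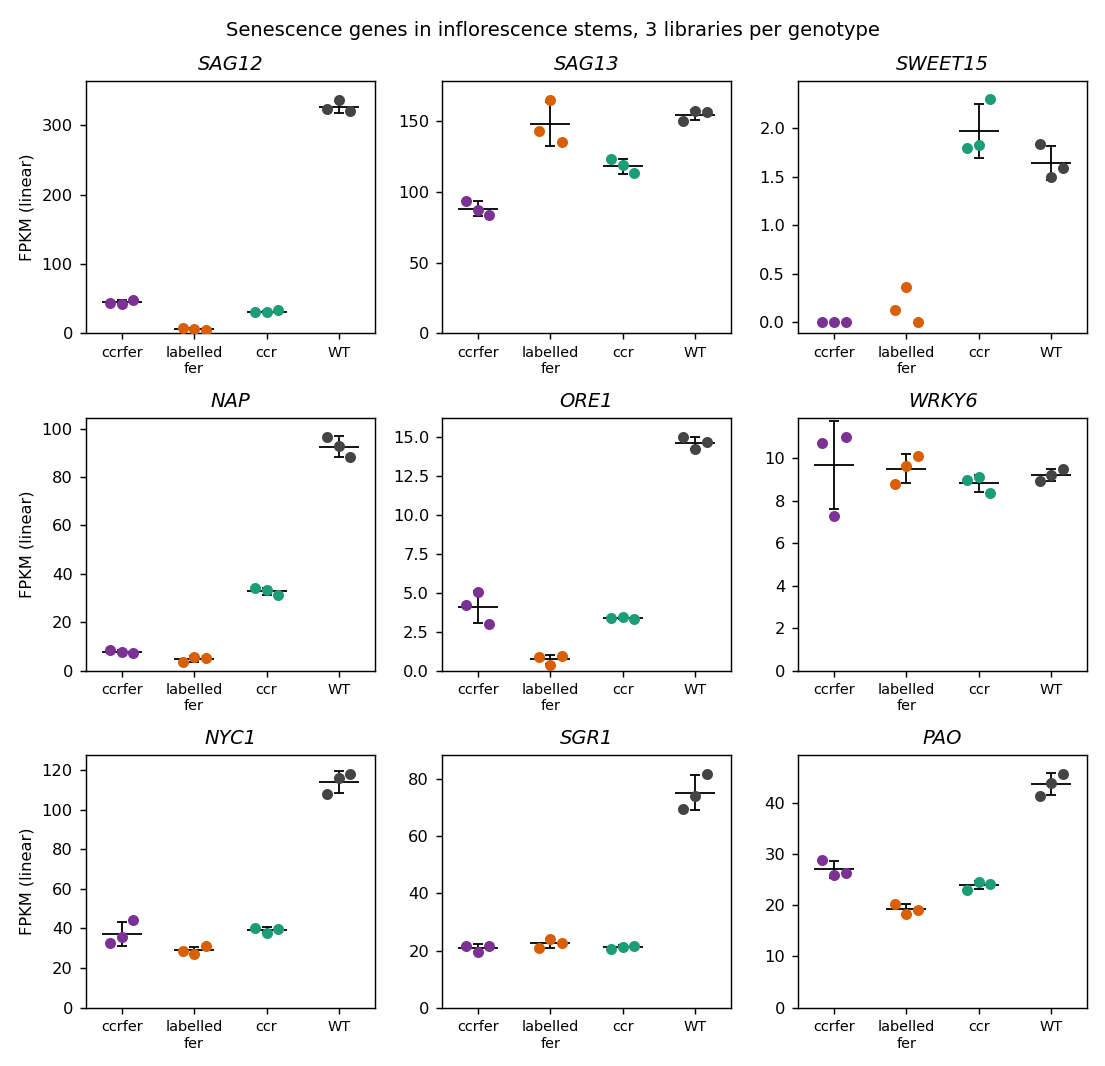
FPKM (linear axis) of the 9 genes in ccrfer, libraries labelled fer, ccr and WT. Points are libraries, and bars are the mean and SD of 3, left out where a library is listed at 0. SAG12 was at 320.5 to 337 in WT and at most 48.1 in any mutant library, while WRKY6 lay between 7.29 and 11.0 throughout.

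SAG12 is a cysteine protease gene and the classic marker of leaf senescence. Its FPKM was 43.4, 43.2 and 48.1 in ccrfer, 7.76, 6.13 and 5.67 in the libraries labelled fer, 31.2, 30.5 and 33.3 in ccr, and 324, 337 and 320.5 in WT. The groups of libraries did not overlap, and the order of the means was WT, ccrfer, ccr and the libraries labelled fer. All neighbours in this order were called different. Mean FPKM was 7.29-fold lower in ccrfer, 50.2-fold lower in the libraries labelled fer and 10.4-fold lower in ccr than in WT. On the log2(FPKM + 1) scale the differences from WT were -2.84 in ccrfer (SE 0.0910, adjusted p = 2.77e-10), -5.46 in the libraries labelled fer (adjusted p = 9.39e-13) and -3.33 in ccr (adjusted p = 1.36e-10). SAG12 was higher in ccrfer than in ccr by 0.49 (95% interval 0.29 to 0.69, adjusted p = 0.00227).

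SAG13, which encodes a short-chain dehydrogenase, moved much less. Its FPKM was 93.7, 87.0 and 83.6 in ccrfer, 143, 165 and 135 in the libraries labelled fer, 123, 119 and 113 in ccr, and 150.2, 157 and 156 in WT. Only the libraries labelled fer overlapped those of WT. SAG13 was lower than in WT in ccrfer (-0.80, SE 0.0743, adjusted p = 2.89e-06) and in ccr (-0.38, adjusted p = 0.00129), and it was lower in ccrfer than in ccr (-0.42, adjusted p = 0.00163). Its difference between the libraries labelled fer and WT was -0.07 (95% interval -0.23 to 0.10, adjusted p = 0.493), which became -0.29 (adjusted p = 0.00458) after quantile normalization, with adjusted p from 0.00458 to 0.982 over 14 alternatives. SAG13 has close relatives beside it in the genome, and how the authors divided reads among them is not given in the sources used here.

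SWEET15 encodes a sucrose exporter that is induced in old leaves. It was low everywhere, listed at 0 in all 3 ccrfer libraries, at 0.122, 0.368 and 0 FPKM in the libraries labelled fer, 1.79, 1.83 and 2.30 in ccr, and 1.84, 1.50 and 1.59 in WT. It passed the filter (FPKM 1 or more in 3 libraries) through ccr and WT alone, which bears on its calls in the other genotypes. The ccr and WT libraries overlapped (difference 0.17, 95% interval -0.19 to 0.52, adjusted p = 0.440). The 1st percentile of FPKM values above 0 was 0.0207 in ccr replicate 2 and 0.543 in ccrfer replicate 3, so a level like that of fer replicate 1 could be missed in some libraries. The limma calls were lower in ccrfer than in ccr (adjusted p = 2.40e-05) and than in WT (adjusted p = 1.82e-05). Libraries labelled fer were also below WT (adjusted p = 5.78e-05).

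NAP and ORE1 are NAC transcription factors that promote senescence. NAP stood at 8.62, 7.49 and 7.37 FPKM in ccrfer, 3.47, 5.64 and 5.21 in the libraries labelled fer, 34.0, 33.2 and 31.2 in ccr, and 96.6, 92.8 and 88.3 in WT. No groups of libraries overlapped, and the means ran WT, ccr, ccrfer and the libraries labelled fer. NAP was 11.8-fold lower in ccrfer, 19.4-fold lower in the libraries labelled fer and 2.82-fold lower in ccr than in WT, as ratios of mean FPKM. Unlike SAG12, it was lower in ccrfer than in ccr (log2 difference -1.94, SE 0.127, adjusted p = 5.45e-07). Its step between ccrfer and the libraries labelled fer was 0.63 (adjusted p = 0.00202), a call lost when only those genotypes were fitted (adjusted p = 0.0555, from 0.00104 to 0.0555 over 14 alternatives).

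ORE1 stood at 4.22, 5.04 and 2.99 FPKM in ccrfer, 0.843, 0.381 and 0.940 in the libraries labelled fer, 3.38, 3.45 and 3.28 in ccr, and 15.0, 14.2 and 14.7 in WT. Libraries of ccrfer and ccr overlapped, and the other pairs of genotypes did not. On the log2(FPKM + 1) scale ORE1 differed from WT by -1.64 in ccrfer (SE 0.169, adjusted p = 7.36e-06), -3.20 in the libraries labelled fer (adjusted p = 1.51e-08) and -1.84 in ccr (adjusted p = 3.49e-06). Between ccrfer and ccr the difference was 0.20 (95% interval -0.17 to 0.57, adjusted p = 0.455).

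WRKY6, a WRKY factor linked to senescence and to phosphate status, was called in none of the 7 comparisons. Its FPKM was 10.7, 7.29 and 11.0 in ccrfer, 8.77, 9.64 and 10.1 in the libraries labelled fer, 8.96, 9.10 and 8.36 in ccr, and 8.93, 9.22 and 9.50 in WT. All groups overlapped with their neighbours. The 95% interval of the difference from WT ran from -0.25 to 0.33 in ccrfer and in the libraries labelled fer, and from -0.35 to 0.23 in ccr.

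The 3 chlorophyll breakdown genes fell below WT in every mutant genotype and lay closer together among the mutants than SAG12, NAP and ORE1 did. SGR1 encodes STAY-GREEN1, which removes magnesium from chlorophyll a. It stood at 21.6, 19.4 and 21.7 FPKM in ccrfer, 20.9, 24.0 and 22.7 in the libraries labelled fer, 20.7, 21.3 and 21.7 in ccr, and 69.5, 74.2 and 81.8 in WT. The mutant libraries overlapped one another, and all lay far below WT. Its log2 differences from WT were -1.80 in ccrfer (SE 0.0775, adjusted p = 3.42e-09), -1.69 in the libraries labelled fer (adjusted p = 4.18e-09) and -1.77 in ccr (adjusted p = 5.79e-09). No pair of mutant genotypes differed by the test, and the ccrfer minus ccr interval was -0.19 to 0.14.

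NYC1 encodes chlorophyll b reductase, which starts the conversion of chlorophyll b to a. It stood at 32.5, 35.5 and 44.2 FPKM in ccrfer, 28.6, 27.2 and 31.0 in the libraries labelled fer, 40.2, 37.8 and 39.8 in ccr, and 108, 116 and 118 in WT. Mean FPKM was 3.05-fold lower in ccrfer, 3.94-fold lower in the libraries labelled fer and 2.90-fold lower in ccr than in WT. The ccrfer and ccr libraries overlapped (-0.08, 95% interval -0.29 to 0.13, adjusted p = 0.615). Relative to libraries labelled fer, NYC1 was higher in ccrfer (0.35, adjusted p = 0.0125), but not when only those genotypes were fitted (adjusted p = 0.0860, from 0.0034 to 0.0860 over 14 alternatives).

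PAO encodes pheophorbide a oxygenase, which opens the chlorophyll ring. It stood at 28.8, 25.8 and 26.3 FPKM in ccrfer, 20.3, 18.3 and 19.0 in the libraries labelled fer, 23.0, 24.5 and 24.2 in ccr, and 41.4, 43.8 and 45.6 in WT. It kept 61.9% of the WT mean in ccrfer, 44.1% in the libraries labelled fer and 54.9% in ccr, and was called lower in each (log2 differences -0.67, -1.14 and -0.84). The ccrfer libraries lay just above those of ccr without a call (0.17, adjusted p = 0.116). The 6 markers of green cells (light-harvesting, Rubisco and photosystem genes) were all detected. Their summed FPKM was 1644 to 2156 in ccrfer, 3001 to 3298 in the libraries labelled fer, 1878 to 2044 in ccr and 1878 to 2091 in WT. The sum hides members that went both ways: in ccr against WT, CAB2 was higher (189 against 113 FPKM) and LHCA1 (302 against 380.1) and PSBO1 (443 against 557) were lower, with 3 not called. Of the 6, 1 was higher and 1 lower in ccrfer, and 5 were higher with the fer label. Their part in the differences of the chlorophyll breakdown genes was not tested.

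**Figure D2:**
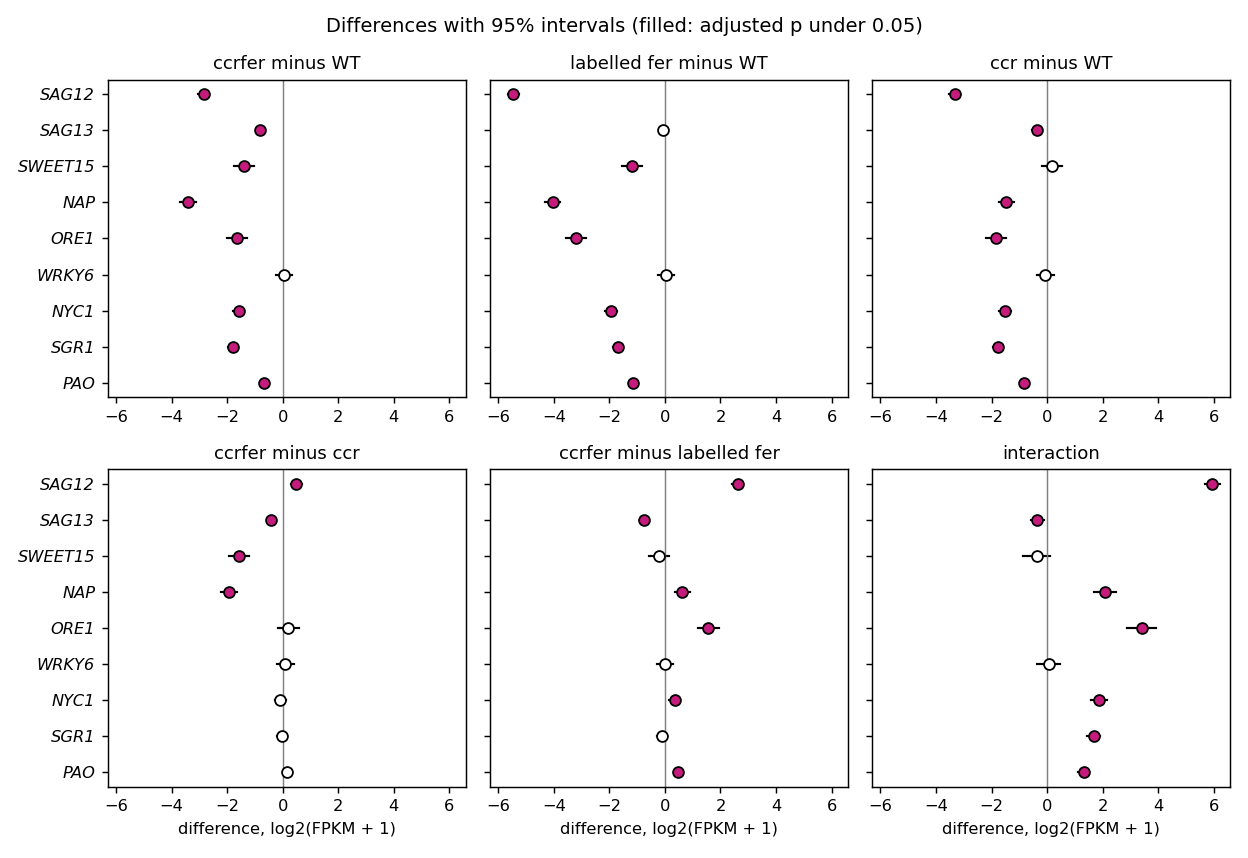
Differences on the log2(FPKM + 1) scale with 95% intervals from limma for the 9 genes in 6 contrasts. Filled points passed an adjusted p of 0.05. Points lie left of 0 in most rows against WT, from -5.46 for SAG12 in the libraries labelled fer, and SAG12 has an interaction of 5.95.

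Between ccrfer and ccr, the comparison named by the study's question, 1 of the 9 genes was higher (SAG12) and 3 were lower (NAP, SAG13 and SWEET15). Without SWEET15, whose call follows in part from the filter, 1 was higher and 2 were lower. Of all tested genes 10.4% were called higher and 10.1% lower. ORE1, WRKY6 and the 3 chlorophyll breakdown genes had no call, and the median of the 9 differences was -0.02. Libraries did not overlap in 5 of the 9, SWEET15 among them, against 38.0% of tested genes. Against the libraries labelled fer, ccrfer was higher in 5 genes (SAG12, NAP, ORE1, PAO and NYC1) and below it in SAG13, where 19.3% and 21.3% of all tested genes were called higher and lower. SAG12 was 6.89-fold higher there (log2 difference 2.62, adjusted p = 1.83e-09) and ORE1 5.66-fold higher (1.56, adjusted p = 2.07e-05), as ratios of mean FPKM. Fitting only these genotypes left 4 calls. Libraries did not overlap in 6 of the 9, against 43.0%. Set against ccr, libraries labelled fer were below it in 6 genes, or 5 without SWEET15, against 18.5% of tested genes. They were above it in SAG13 (0.32, adjusted p = 0.00525), against 20.5%. Libraries did not overlap in 7 of the 9, SWEET15 among them, against 55.9%. The SAG13 call was lost after quantile normalization (0.11, adjusted p = 0.221) and with AT2G01021 as a covariate (adjusted p = 0.0571), with adjusted p from 0.00276 to 0.221 over 14 alternatives.

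In most of these genes the difference between ccrfer and the libraries labelled fer was not the same as that between ccr and WT. FER averaged 0.849 FPKM in ccrfer and 84.1 in the libraries labelled fer, so the first difference also spans a change in FER transcript. The part of ccr1-3 in it cannot be told apart. The interaction, which is ccrfer minus fer less ccr minus WT, was called higher in 6 of 9 genes, against 17.1% of tested genes, and lower in SAG13, against 22.4%. SAG12 had an interaction of 5.95 (SE 0.129, adjusted p = 3.06e-11), the sum of a difference of 2.62 between ccrfer and the libraries labelled fer and a fall of 3.33 in ccr against WT. ORE1 followed with 3.40 (adjusted p = 4.58e-07) and NAP with 2.10 (adjusted p = 2.27e-06). The values were 1.86 for NYC1, 1.67 for SGR1 and 1.31 for PAO (adjusted p at most 6.90e-07). For SGR1 this came from a fall of 1.77 in ccr against WT beside a difference of -0.10 between ccrfer and the libraries labelled fer. SAG13 had -0.36 (adjusted p = 0.0184), which was -0.12 (adjusted p = 0.383) after quantile normalization, with adjusted p from 0.00775 to 0.383 over 19 alternatives. SWEET15 (-0.37, adjusted p = 0.221) and WRKY6 (0.06, adjusted p = 0.819) had no call.

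Promoters are shown for SAG12, which fell furthest of the 9 in ccr and with the fer label, for NAP and NYC1, the 2 of the 9 whose window held a G-box, and for WRKY6, which had no call. The sequences are from RefSeq assembly TAIR10.1, covering 250 bases before to 50 bases after the annotated gene start, 5′ to 3′ on the gene's strand. The windows are chr5:18612989-18613288 (plus strand) for SAG12, chr1:26121830-26122129 (plus) for NAP, chr4:7686957-7687256 (minus) for NYC1 and chr1:23019445-23019744 (minus) for WRKY6. Capitals mark the G-box CACGTG, the abscisic acid response core ACGTG and the W-box core TTGAC that WRKY factors bind, on either strand. In NYC1 a G-box and a W-box core on the opposite strand overlap. They begin at bases 35 and 40 after the annotated gene start, so they lie within the gene and not before it.
SAG12: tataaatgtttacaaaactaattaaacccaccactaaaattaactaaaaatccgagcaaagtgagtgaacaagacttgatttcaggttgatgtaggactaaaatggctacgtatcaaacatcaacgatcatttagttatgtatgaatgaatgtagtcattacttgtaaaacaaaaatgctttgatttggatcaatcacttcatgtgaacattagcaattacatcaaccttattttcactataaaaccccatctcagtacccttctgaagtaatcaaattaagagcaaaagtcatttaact
NAP: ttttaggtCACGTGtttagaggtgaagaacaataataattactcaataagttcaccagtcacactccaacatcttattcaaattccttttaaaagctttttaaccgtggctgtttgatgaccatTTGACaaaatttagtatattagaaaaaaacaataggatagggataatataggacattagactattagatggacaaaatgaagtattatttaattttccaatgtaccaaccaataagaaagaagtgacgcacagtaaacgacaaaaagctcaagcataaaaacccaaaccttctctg
NYC1: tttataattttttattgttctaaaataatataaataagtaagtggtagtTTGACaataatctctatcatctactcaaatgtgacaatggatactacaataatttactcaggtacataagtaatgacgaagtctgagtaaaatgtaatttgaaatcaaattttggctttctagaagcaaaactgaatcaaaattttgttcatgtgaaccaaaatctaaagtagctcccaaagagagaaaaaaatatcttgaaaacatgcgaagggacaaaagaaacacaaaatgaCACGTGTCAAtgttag
WRKY6: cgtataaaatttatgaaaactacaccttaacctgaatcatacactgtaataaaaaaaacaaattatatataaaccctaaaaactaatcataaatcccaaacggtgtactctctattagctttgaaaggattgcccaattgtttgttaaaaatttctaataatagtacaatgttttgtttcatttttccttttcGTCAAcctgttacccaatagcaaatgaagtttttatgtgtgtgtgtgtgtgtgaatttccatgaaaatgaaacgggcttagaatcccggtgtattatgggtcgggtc
The G-box was in 2 of the 9 windows and in 7.68% of 27443 promoters of protein-coding genes. The ACGTG core, which every G-box contains, was in 4 of 9 against 26.7%, in NAP, NYC1, SAG13 and SWEET15. TTGAC was in 6 of 9 against 50.5%, in the same genes and in ORE1 and WRKY6. In ORE1 its copies also lie after the gene start, at bases 22 and 36. The core CGTG bound by NAC factors, which lies within ACGTG, was in 6 of 9 against 52.7%. The SAG12 window held none of these motifs, which concerns only these letters in this window.

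Beyond the 9 genes, 6 lists of other senescence genes (74 genes) were read by role, and DIN2, YLS9, WRKY42, ABI5 and AAP8 fell below the filter. Their counts are to be read against the shares of all tested genes, which were 22.8% lower and 24.9% higher in ccrfer, 23.2% and 28.4% with the fer label, and 19.8% and 24.0% in ccr against WT. Between ccrfer and ccr the shares were 10.1% lower and 10.4% higher. Other senescence-associated genes were mostly lower than in WT. Of 14 tested, 11 were lower and 2 higher in ccrfer, 10 were lower and 2 higher with the fer label, and ccr had 8 lower and 1 higher. The medians were -0.95, -0.84 and -0.54. SEN1 is counted as lower in every mutant genotype. It passed the filter only with its WT libraries (3.00 to 3.55 FPKM), so these calls follow in part from the filter. DIN6, 1 of the 2 higher in ccrfer and with the fer label, passed only through those libraries. It was at 2.12 to 2.57 FPKM in ccrfer, 1.90 to 3.53 with the fer label and 0.246 to 0.464 in WT. DIN10, lower in ccrfer and ccr, passed only through WT and the libraries labelled fer. The calls of DIN6 and DIN10 follow in part from the filter too. BFN1, a nuclease gene of senescence and cell death, averaged 5.23 ± 2.69 FPKM in ccrfer, 6.17 ± 0.484 in the libraries labelled fer, 0.889 ± 0.315 in ccr and 29.0 ± 1.50 in WT (SD, n = 3 each). BFN1 was higher in ccrfer than in ccr (1.65, adjusted p = 0.000398), as SAG12 was. AT2G25625 averaged 6.27 ± 0.160, 4.22 ± 0.426, 1.99 ± 0.514 and 37.0 ± 4.76 FPKM in the same order of genotypes. SAG113, a phosphatase gene induced by abscisic acid, went the other way, with 3.58 ± 0.564 FPKM in ccrfer, 16.3 ± 0.109 in ccr and 1.25 ± 0.118 in WT, a rise of 2.94 in ccr over WT (log2 scale, adjusted p = 1.19e-08). The authors' deposited table of 313 genes held none of the 9 genes. Of the genes in the 6 lists it held SAG113, NAC072 and WRKY22, with log2 ratios between ccr and WT of 3.70, 1.99 and 1.59. These are ratios of mean FPKM without the added 1, so 3.70 and 2.94 are on unlike scales. SAG21, a late-embryogenesis-type stress gene, was lower in ccrfer than in ccr (-1.97, adjusted p = 2.56e-06). Between ccrfer and ccr, 3 of the 14 tested genes of this list were higher, DIN6 among them, and 4 were lower. The other 7 had no call, and the median was -0.07.

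Chlorophyll breakdown beyond NYC1, SGR1 and PAO was lower in 8 of 11 genes in ccrfer, 6 in the libraries labelled fer and 7 in ccr, with 1, 2 and 1 higher and medians of -0.66, -0.75 and -0.71. SGR2, a relative of SGR1, averaged 17.7 ± 2.02 FPKM in ccrfer, 7.20 ± 1.33 in the libraries labelled fer, 15.2 ± 0.500 in ccr and 47.3 ± 1.67 in WT. HCAR, which reduces the intermediate made by NYC1, was at 1.46 ± 0.364, 1.05 ± 0.264, 1.25 ± 0.0760 and 5.84 ± 0.719 in that order. CYP89A9, a cytochrome P450 that modifies chlorophyll catabolites, was lower in ccrfer than in ccr (-0.77, adjusted p = 9.71e-06). The chlorophyllase gene CLH1, listed here although it is not required for breakdown in senescent leaves, rose in every mutant genotype. It averaged 37.2 ± 2.24 FPKM in ccrfer, 189.6 ± 5.38 in the libraries labelled fer, 18.4 ± 0.618 in ccr and 10.5 ± 1.10 in WT. Between ccrfer and ccr, 1 gene of the list was higher and 2 of 11 were lower, against 10.4% and 10.1% of all tested genes.

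Genes of nitrogen remobilization and autophagy were lower in nearly every case. Of 14 tested, 12 were lower in ccrfer, 13 in the libraries labelled fer and 13 in ccr, and none was higher. The medians were -0.70, -1.26 and -0.89. GLN1;1, a cytosolic glutamine synthetase, averaged 338 ± 26.2 FPKM in ccrfer, 125 ± 4.58 in the libraries labelled fer, 296 ± 13.1 in ccr and 1572 ± 48.2 in WT. The nitrate transporter gene NRT2.5 was at 16.7 ± 2.45, 11.9 ± 0.716, 11.9 ± 0.842 and 135 ± 4.59 FPKM in that order. NRT1.7, which loads nitrate from old leaves into phloem, was 1.75 higher in ccrfer than in ccr (109.6 ± 3.12 against 32.0 ± 1.29 FPKM, adjusted p = 3.86e-10). LHT1, an amino acid transporter gene, was lower there (-1.27, adjusted p = 9.45e-07). Set against ccr, ccrfer had 3 genes of the list higher and 1 lower. Without ccrfer replicate 3 they were 5 and 2.

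**Figure D3:**
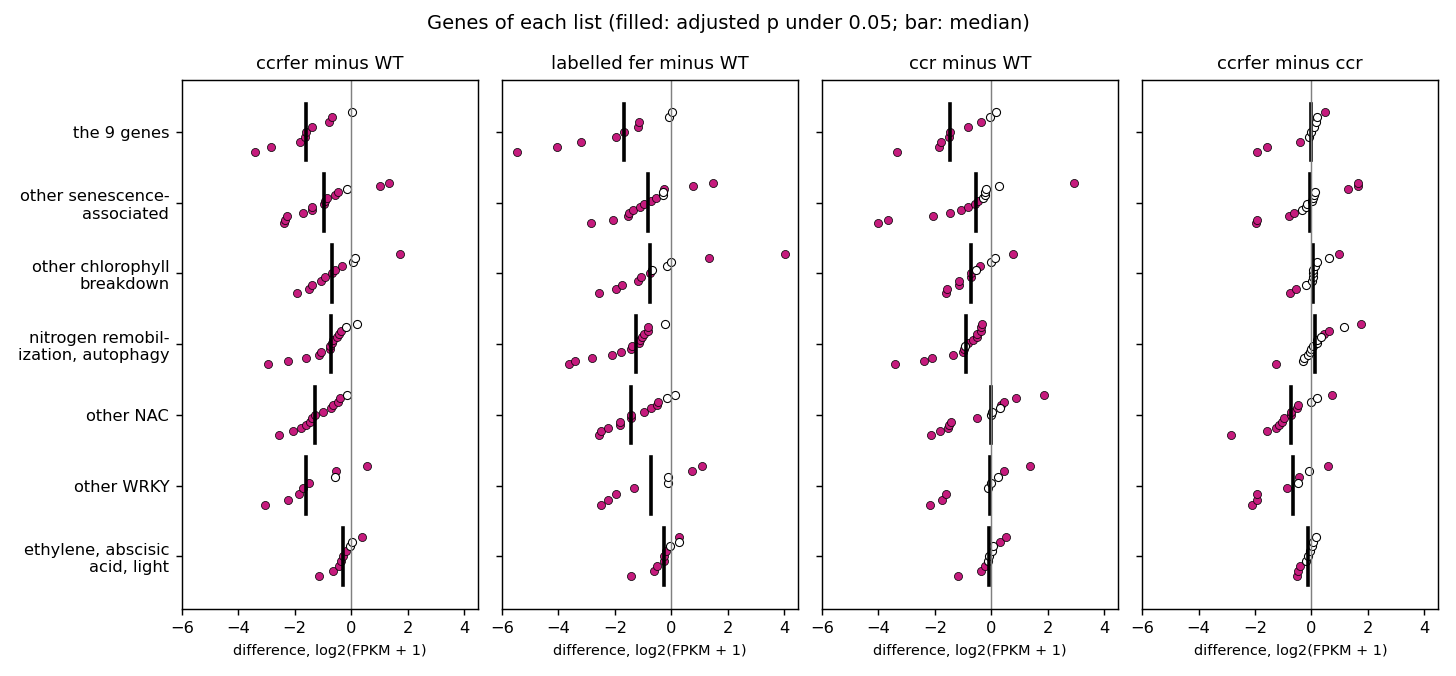
Differences on the log2(FPKM + 1) scale of each tested gene of the 9 genes and of 6 lists of other senescence genes, in 4 comparisons. Filled points passed an adjusted p of 0.05 and the black bar is the list's median. The nitrogen and autophagy points lie left of 0 in the panel of ccr minus WT, and the other NAC genes spread to both sides of 0 there.

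Other NAC regulators were mostly below WT in ccrfer and with the fer label, and went both ways in ccr. Of 13 genes, 12 were lower than in WT in ccrfer, 11 in the libraries labelled fer and 6 in ccr. In the same order 0, 0 and 4 were higher, and the medians were -1.29, -1.42 and -0.02. NAC055 is counted as lower in every mutant genotype. It passed the filter only with its WT libraries (2.76 to 2.96 FPKM), so these calls follow in part from the filter. ORS1, a paralogue of ORE1, averaged 10.3 ± 1.02 FPKM in ccrfer, 5.56 ± 2.21 in the libraries labelled fer, 5.85 ± 1.21 in ccr and 28.8 ± 3.03 in WT. NAC072, a drought regulator, was 2.85 lower in ccrfer than in ccr (3.74 ± 0.914 against 32.9 ± 2.21 FPKM) and 1.87 higher in ccr than in WT, which had 8.26 ± 0.768. NAC019 averaged 4.95 ± 0.977 in ccrfer, 2.23 ± 0.531 in the libraries labelled fer, 16.7 ± 1.28 in ccr and 16.9 ± 0.636 in WT. Between ccrfer and ccr 10 of the 13 were lower and 1 was higher. Leaving out ccr replicate 1 gave 7 lower and none higher. Without it, ccr rests on 2 libraries.

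Of 8 tested WRKY regulators other than WRKY6, 6 were lower than in WT in ccrfer, 4 in the libraries labelled fer and 3 in ccr, and 1, 2 and 2 were higher, with medians of -1.59, -0.73 and -0.06. WRKY53, an early activator of senescence, averaged 6.66 ± 0.560 FPKM in ccrfer, 18.7 ± 2.90 in the libraries labelled fer, 28.4 ± 2.12 in ccr and 20.4 ± 0.966 in WT. WRKY70, which restrains senescence and carries salicylic acid signals, was at 17.3 ± 2.98, 25.3 ± 2.00, 76.7 ± 0.832 and 64.9 ± 2.16 in that order. WRKY54, its close relative, was at 2.49 ± 0.709, 4.14 ± 1.41, 5.28 ± 0.756 and 27.3 ± 0.184, and WRKY25 at 13.5 ± 1.43, 13.9 ± 5.36, 19.1 ± 2.07 and 67.0 ± 2.32. Between ccrfer and ccr 5 were lower, among them WRKY53 (-1.94) and WRKY70 (-2.10), and 1 was higher. Regulators of ethylene, abscisic acid and light signalling had medians of -0.27 in ccrfer, -0.24 in the libraries labelled fer and -0.07 in ccr against WT. Of 9 tested, 6 were lower and 1 higher in ccrfer, 6 and 1 with the fer label, while ccr had 3 lower and 2 higher, against 19.8% and 24.0% of all tested genes. PIF4, a light-regulated activator of senescence, fell in all 3 (12.2 ± 0.875, 9.62 ± 0.739, 11.6 ± 0.867 and 27.6 ± 1.03 FPKM in ccrfer, the libraries labelled fer, ccr and WT). The abscisic acid factor ABF2 was 0.52 higher in ccr than in WT. ABF3 (-0.49) and EEL (-0.50) were among 3 lower in ccrfer than in ccr, which became 5 without ccrfer replicate 3.

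Likeness of pattern was measured by Pearson's r of log2(FPKM + 1) over the 12 libraries, among 13643 genes with a mean FPKM of 5 or more. These libraries fall into 4 genotypes, so r mainly follows the order of the genotype means. The genes most like SAG12 were NIT4 (r = 0.997), ALN (0.997) and RPP4 (0.995). NIT4 averaged 27.8 FPKM in ccrfer, 6.55 in the libraries labelled fer, 19.6 in ccr and 122 in WT. ALN was also the gene most like ORE1 (r = 0.994), and GDU3 was most like NAP (0.990). SWEET15 had the listed genes WRKY70 (0.980) and SAG21 (0.977) among its 3 nearest, after NAC036 (0.984). The nearest gene to WRKY6 reached 0.880.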

How the data were processed

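The authors aligned reads to TAIR10 and estimated expression, with TopHat2 2.1.1, Bowtie2 2.3.2.0, Cufflinks 2.2.1 and Cuffdiff, per the submitters' processing notes. Araport11 annotation is named in a note of the deposited read report. Libraries came from a stranded mRNA kit and read pairs of 75 bp, per the labels' protocols. The deposited values are FPKM, and whether they hold a further scaling between libraries is not given in the sources used here. A deposited table of 313 genes gives the authors' mean FPKM, log2 ratios and adjusted p-values, whose test is not named. The deposited read report holds read counts and the mapped fraction (91.4% to 94.2% as percentages). FPKM carries no read number per gene, so the counting error of SWEET15 and other low genes is unknown.

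From FPKM, log2(FPKM + 1) was computed, which understates differences of low genes. Testing took in 18428 genes that reached FPKM 1 in 3 or more libraries, all 9 genes among them. limma 3.58.1 in R 4.3.3 fitted a mean per genotype over all 12 libraries with a mean-variance trend. Tests were two-sided, with Benjamini-Hochberg adjustment over all tested genes. The labels call the replicates biological, without naming separate plants or cultures. Replicate numbers were not used to pair libraries: deviations from the genotype means correlated between -0.129 and 0.191 over 18 pairs with the same number. The fit was tested on simulated data. All 9 genes are named. Genes of the lists are named where they had the 2 largest differences in ccr minus WT or in ccrfer minus ccr. Others are named where the filter bears on them or where the authors' table held them. AT2G25625 had no symbol in RefSeq's table. The genes, the lists and the tests were chosen with earlier results of these data known. TAIR10.1 of RefSeq served for names and promoters, and 312 of 312 genes with coordinates in the authors' table overlapped their RefSeq gene. Alternatives were another pseudocount, filters, scalings, a replicate block, a covariate, smaller fits and single libraries left out.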

Additional observations from a re-analysis of the deposited data

Results flagged for a closer look

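In 7 of 9 genes the difference between ccrfer and the libraries labelled fer departed from that between ccr and WT, by limma's interaction term. Its value was 5.95 for SAG12, 3.40 for ORE1, 2.10 for NAP, 1.86 for NYC1, 1.67 for SGR1, 1.31 for PAO and -0.36 for SAG13. The SAG13 call was lost after quantile normalization (-0.12, adjusted p = 0.383, from 0.00775 to 0.383 over 19 alternatives), which leaves 6. The contrast uses the libraries labelled fer, in which FER stood at the WT level, so the part of ccr1-3 in it cannot be told apart. Of all tested genes, 17.1% had a positive and 22.4% a negative interaction call.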

How the results depend on the processing

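Of 374 counts recomputed under alternatives, 369 stayed within 1.5 times the count given, and of 920 differences of single genes 895 kept direction and side of the threshold. With a replicate block the called genes numbered 7898 (ccr minus WT) and 3650 (ccrfer minus ccr), against 8058 and 3769 without it, and it changed no call of the 9 genes. With AT2G01021 as a covariate 2295 genes were called between ccrfer and ccr. Fitting only the genotypes compared gave 4380 called genes for ccrfer against the libraries labelled fer, where 7481 were called over all libraries, and lost NAP (0.63) and NYC1 (0.35) there. Leaving out single libraries, all genes called numbered 2641 to 4297 (ccrfer minus ccr), and in that comparison the lists had 2 to 5 calls (ethylene, abscisic acid and light, 3 over all libraries), 4 to 7 (nitrogen and autophagy, 4 over all) and 7 to 11 (NAC, 11 over all). The 9 genes kept their counts in every such fit, namely 8, 7 and 7 (ccrfer, labelled fer and ccr against WT), 4 (ccrfer minus ccr), 6 (ccrfer minus labelled fer), 7 (labelled fer minus ccr) and 7 (interaction).

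Differences that changed sign all came from comparisons in which the gene had no call. WRKY6 against WT became -0.00 in the libraries labelled fer with median-of-ratios scaling. With the covariate it became -0.16 in ccrfer, -0.22 in the libraries labelled fer and 0.02 in ccr, -0.19 for ccrfer minus ccr and -0.24 for labelled fer minus ccr, where SGR1 became -0.05. Quantile normalization gave -0.02 for SWEET15 in ccr minus WT and -0.00 for WRKY6 in ccrfer minus labelled fer. With single libraries left out, WRKY6 ranged from -0.05 to 0.22 (ccrfer minus WT), -0.00 to 0.09 (labelled fer minus WT), -0.09 to 0.18 (ccrfer minus labelled fer) and -0.03 to 0.24 (interaction), and between ccrfer and ccr NYC1 ranged from -0.20 to 0.01 and SGR1 from -0.05 to 0.03. The cause was not tested. SWEET15 had no value under the filter at FPKM 5. The depth behind single FPKM values is unknown.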
